A study of Mus musculus with 2 samples.

Results

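Mitotic GL261 tumour cells are here the tumour cells with high counts of transcripts of late cell division. The cell cycle phase of a cell was not measured. The word mitotic thus names this class, and how many of its cells were in mitosis itself is not known. A barcode was kept as a cell with at least 500 mouse genes and at most 10% mitochondrial UMIs (unique molecular identifiers, each counting 1 captured transcript). A kept cell was taken as a tumour cell with at least 4 UMIs summed over Sox2, Nes, Hmga2 and Met, at most 1 UMI of Ptprc, the pan-leukocyte gene, and under 5 UMIs summed over the neuroblast genes Dcx, Dlx1 and Dlx2. It was called mitotic when its mitosis index, the UMIs of Cdc20, Ube2c, Ccnb1 and Cenpf per 10000 mouse UMIs, was at least 8. The members were thus chosen by measured values, namely the UMIs of these genes. These rules gave 288 mitotic cells among 1639 tumour cells, 9685 kept cells and 15751 barcodes. The library labelled wild type held 161 of 650 tumour cells and the library labelled knockout 127 of 989. The other 489 and 862 tumour cells are called the tumour cells below the limit. The libraries are abbreviated to WT-labelled and KO-labelled library, and pairs of values give the WT-labelled library first.

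GL261 is an established mouse line used as a model of glioblastoma. It was implanted in host mice, and brain tissue was taken at day 24. One host group has the genotype C57BlL6 WT and the other Cacna1H-/-, titled Cav3.2KO, a knockout of the T-type calcium channel Cav3.2. Each group gave 1 library. The implanted cells carried no label of a genetic change of their own, so genotype describes the host. How many animals went into a library, whether they were pooled, and their age and sex are not given in the sources used here. Both hold tumour cells with those of their microenvironment, dissociated with a MACS neural kit and captured with 10x Genomics 3' v3.1 chemistry. No difference between the libraries has a replicate check, no p-value was computed, and all intervals are 95% intervals that cover counting error only.

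The libraries held 54567114 and 103281480 UMIs over all barcodes, of which the mitotic cells held 7353512 and 6215216. Over its kept cells the WT-labelled library held 13 Cacna1h UMIs, or 0.250 CPM (UMIs per 1000000 mouse UMIs, exact Poisson interval 0.133 to 0.427), and the KO-labelled library 168, or 1.67 CPM (1.42 to 1.94). It was thus higher in the KO-labelled library. A tag at the 3' end checks nothing about a deletion elsewhere in the gene, so the groups are called by their labels throughout. The libraries shared 21 barcode sequences, of which 7 were kept in both and 2 were mitotic in 1 library, with 0 mitotic in both. A caller of doublets, barcodes that hold 2 cells, marked 0 and 1 of the mitotic cells.

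The label was checked against the marker genes given for these cells. Cdc20, Ube2c, Ccnb1 and Cenpf had a UMI in 96.9% to 99.4% of mitotic cells in the WT-labelled library and in 94.5% to 100% in the KO-labelled library. Sox2, a transcription factor of neural stem cells, was found in 95.7% and 96.1%, and Hmga2, a chromatin protein of embryonic and tumour cells, in 93.8% and 96.1%. All 6 genes took part in the choice of the cells, so these values describe it. Markers of other cells were present too, at the levels that follow. The 11 markers of T and NK cells summed to 11.02 and 17.4 CPM, against 12.4 and 20.3 below the limit, and Ncr1 was at 0 in both libraries. The 12 macrophage and microglia markers summed to 135 and 171 CPM, against 111 and 108, and reached 20 UMIs in 12 and 1 mitotic cells. In the WT-labelled library Tmem119 made up 69.5 CPM of this sum, above its highest level of 56.2 CPM in other cell types gated by markers. In the KO-labelled library 1 cell held 495 of these UMIs, and Ms4a7 was at 0 in the WT-labelled library. The 8 endothelial and mural markers summed to 81.6 and 108 CPM, against 213 and 76.4, and 1 cell in the KO-labelled library held all 253 Cldn5 UMIs. The 10 dendritic and B cell markers summed to 2.18 and 10.9 CPM and the 9 neuron and neuroblast markers to 68.95 and 53.1 CPM, with Rbfox3 at 0 in both libraries. In 15 and 3 mitotic cells there were at least 20 UMIs of one of the T and NK, macrophage, dendritic and B, or endothelial lists, or fewer than 2 UMIs of Sox2 and Hmga2 together. A UMI of Xist was counted in 1 and 15 mitotic cells, at 0.136 and 15.8 CPM over all of them, and a UMI of 4 Y-linked genes in 8 and 5, at 1.90 and 1.77 CPM. Together these were 9 and 20 cells. The 6 mature oligodendrocyte markers reached 20 UMIs in 8 and 0 mitotic cells and in 25 and 15 below the limit. For some results that moved without these cells both values are given.

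Division is driven by cyclin-dependent kinase 1, which is switched on by A- and B-type cyclins and starts chromosome condensation, nuclear envelope breakdown and spindle assembly. The spindle assembly checkpoint holds the cell until every kinetochore, the protein plate on a centromere, is attached to microtubules. The anaphase-promoting complex, activated by Cdc20 and fed by the ubiquitin-conjugating enzyme Ube2c, then marks cyclin B1 and securin for destruction, so that sister chromatids part and the cell divides. Many of these genes are transcribed late in the cell cycle through promoters with CCAAT boxes, which bind the factor NF-Y, and with the cell cycle genes homology region, which binds the MuvB complexes with B-Myb and FoxM1.

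The promoters of the 4 genes of the index are shown because they carry these letters close to the start of transcription. Each line gives the 150 bases before the annotated start on the gene's own strand, from RefSeq on GRCm38.p6, with CCAAT boxes and homology regions (TTTGAA or TTCGAA) on either strand in capitals. They lie at chr4:118437344-118437493 (minus strand) for Cdc20, chr2:164769779-164769928 (plus) for Ube2c, chr13:100786487-100786636 (minus) for Ccnb1 and chr1:189688087-189688236 (minus) for Cenpf.
Cdc20: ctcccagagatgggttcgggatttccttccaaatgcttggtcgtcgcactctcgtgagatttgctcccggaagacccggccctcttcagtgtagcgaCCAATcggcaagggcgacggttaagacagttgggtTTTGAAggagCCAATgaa
Ube2c: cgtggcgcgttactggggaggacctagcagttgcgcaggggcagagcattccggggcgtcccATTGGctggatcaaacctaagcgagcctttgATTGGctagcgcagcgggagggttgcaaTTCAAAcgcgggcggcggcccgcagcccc
Ccnb1: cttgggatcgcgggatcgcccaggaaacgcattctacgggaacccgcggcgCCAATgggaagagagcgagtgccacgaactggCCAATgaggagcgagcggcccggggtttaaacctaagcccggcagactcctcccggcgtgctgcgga
Cenpf: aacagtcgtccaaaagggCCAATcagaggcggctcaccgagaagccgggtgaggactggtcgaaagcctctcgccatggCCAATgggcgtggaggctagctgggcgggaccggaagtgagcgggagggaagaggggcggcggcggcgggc
Cdc20 had TTTGAA starting 18 bases before the start and CCAAT at 53 and 8 bases before it. In Ube2c the homology region was on the opposite strand, as TTCAAA at 29 bases before the start. Neither form was found in the 250 bases before Ccnb1 or Cenpf. All 4 held at least 2 CCAAT boxes in those 250 bases, which 10.5% of 27025 mouse promoters of that length did. At least 1 CCAAT box was found in 34.5% of all promoters and a homology region in 17.4%.

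Of the 20 genes named below as highest in mitotic cells, 15 had a promoter in the table. A CCAAT box was found in 14 of them, at least 2 in 7, and a homology region in 4, against 26.6% with a homology region among 128 promoters of genes in 8 mitosis lists. Those of Gas2l3, Ccnf, Aurka and Hmmr show the range, at chr10:89443968-89444117 (minus), chr17:24251410-24251559 (minus), chr2:172370571-172370720 (minus) and chr11:40733438-40733587 (minus).
Gas2l3: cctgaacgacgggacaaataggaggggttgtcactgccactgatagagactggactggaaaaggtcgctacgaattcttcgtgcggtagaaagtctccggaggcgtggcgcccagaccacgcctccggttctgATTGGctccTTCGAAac
Ccnf: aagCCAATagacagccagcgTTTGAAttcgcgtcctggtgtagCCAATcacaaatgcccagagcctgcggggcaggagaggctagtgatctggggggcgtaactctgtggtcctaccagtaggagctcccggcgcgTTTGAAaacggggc
Aurka: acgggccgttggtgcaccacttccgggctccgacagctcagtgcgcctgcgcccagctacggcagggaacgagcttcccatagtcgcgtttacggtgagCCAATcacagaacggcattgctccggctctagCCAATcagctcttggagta
Hmmr: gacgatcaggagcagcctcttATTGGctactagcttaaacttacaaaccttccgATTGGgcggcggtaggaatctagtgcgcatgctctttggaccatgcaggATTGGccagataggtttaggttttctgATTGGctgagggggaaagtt
Gas2l3 had TTCGAA, 8 bases before its start. Ccnf had 2 homology regions, the nearer 14 bases before the start. Aurka held 2 CCAAT boxes and no homology region, and Hmmr 5 CCAAT boxes over 250 bases, 4 of them in the stretch shown. A match is a description of the sequence. Binding was not measured.

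Mitotic cells were 24.8% of tumour cells in the WT-labelled library (161 of 650, exact binomial interval 21.5 to 28.3) and 12.8% in the KO-labelled library (127 of 989, 10.8 to 15.1). The share in the WT-labelled library was 1.93 times as large (interval 1.56 to 2.38). At the other end, 29.7% of tumour cells in the WT-labelled library and 49.0% in the KO-labelled library had no UMI of the 4 genes at all. The median index within mitotic cells was 22.9 and 21.3, with quartiles of 13.3 to 34.1 and of 13.8 to 31.5. Immune cells, taken as kept cells with at least 2 Ptprc UMIs and at most 1 UMI of the 4 tumour genes, passed the same limit in 4.74% (96 of 2025) and 2.53% (115 of 4551), a ratio of 1.88 (1.44 to 2.45). Both tumour and immune cells thus had the lower mitotic share in the KO-labelled library.

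The limit cuts through a range without a gap. In the WT-labelled library 18 cells had an index from 6 to 8 and 16 from 8 to 10, with the last cell outside at 7.90 and the first inside at 8.19. The KO-labelled library had 12 and 8 such cells, with 7.72 and 8.49 at the limit. After each cell was thinned to 5000 UMIs, which left out 9 and 18 shallower tumour cells, the index passed the limit in 26.8% and 13.3% of tumour cells. An index from 8 other mitotic genes, set to select the same number of cells in all, found 90.7% and 89.8% of the same cells.

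Mitotic cells were found in each tumour state. The 3 tumour states, known from an earlier clustering of the same data, were marked by at least 3 UMIs of their genes at 5000 UMIs per cell, and a cell can carry more than 1. Cells with Sncaip, Cntn1 and Nts transcripts were mitotic in 31.5% of 200 cells (25.1 to 38.4) in the WT-labelled library and in 24.7% of 81 cells (15.8 to 35.5) in the KO-labelled library. Cells with Col2a1, Enpp2 and Acot1 were mitotic in 13.9% of 115 (8.17 to 21.6) and 5.81% of 396 (3.72 to 8.59). For Tcim, Dll3 and Reln the shares were 17.8% of 247 (13.3 to 23.2) and 11.3% of 382 (8.27 to 14.9), and for cells of none of the 3 states 28.3% of 159 and 19.4% of 252. The share was lower in the KO-labelled library in every state. The intervals of the libraries overlapped in every state. The Col2a1 state with its low mitotic share held 20.6% of the tumour cells below the limit in the WT-labelled library and 44.1% of those in the KO-labelled library. Among mitotic cells it held 10.0% and 18.3%, and the Sncaip state 39.4% and 15.9%.

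**Figure D1:**
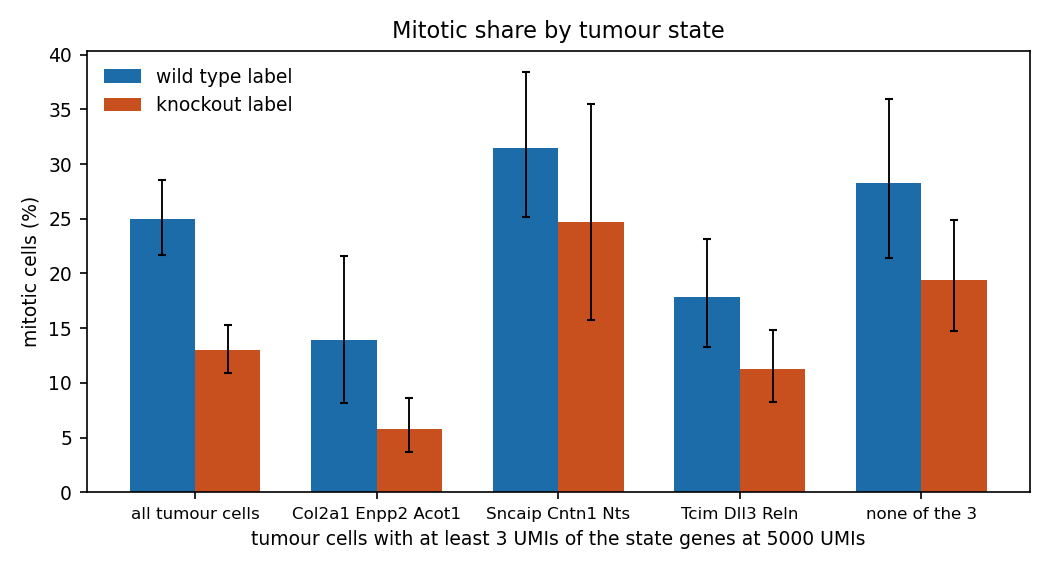
Share of tumour cells that were mitotic (%, vertical axis) in all tumour cells and in cells with at least 3 UMIs of each set of state genes at 5000 UMIs, for the WT-labelled library (blue) and the KO-labelled library (red-brown). Bars start at 0 and lines are exact binomial 95% intervals. The share runs from 5.81% in Col2a1 cells in the KO-labelled library to 31.5% in Sncaip cells in the WT-labelled library.

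Mitotic cells were large in transcripts. Their median was 40545 UMIs against 29127 below the limit in the WT-labelled library, 1.39 times as many, and 44809 against 25419 in the KO-labelled library, 1.76 times. They had medians of 7094 and 7488 genes against 6089 and 5935. In dividing immune cells the ratio of UMIs to other immune cells was 1.95 and 2.003. At an equal 5000 UMIs the number of genes was much alike, at 2395 and 2393 in mitotic cells and 2373 and 2394 below the limit. Mitochondrial UMIs were 1.77% and 1.44% of the total in the median mitotic cell.

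For levels, UMIs were summed over the cells of a class in each library and scaled to CPM. The rule was built on the contrast of mitotic cells with tumour cells below the limit, and on correlated genes, so what follows describes the members and tests nothing. Of 12751 genes with at least 100 UMIs in tumour cells, 317 (2.49%) were at least 2-fold higher in mitotic cells in both libraries and 466 (3.65%) at least 2-fold lower. Thinned to 5000 UMIs the lower count was 175, and without the cells with sex-linked UMIs 260. For members of gene lists the limit was 1.5-fold in both libraries, past which 4.61% of all genes were higher and 9.88% lower. The median gene stood at log2 differences of -0.10 and -0.13.

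Among the regulators of entry into mitosis, 18 of 20 genes outside the rule were higher in mitotic cells and 0 lower, with median log2 differences of 2.20 and 3.37. Plk1, the polo-like kinase that acts from centrosome maturation to cytokinesis, stood at 117 CPM against 7.36 below the limit in the WT-labelled library, and at 122 against 3.34 in the KO-labelled library. It had a UMI in 88.8% and 92.1% of mitotic cells and in 11.9% and 5.68% of the other tumour cells. Cdk1, the kinase itself, stood at 432 against 91.9 CPM and at 499 against 48.4 CPM. Aurka, the centrosomal Aurora kinase, had log2 differences of 3.70 and 4.54, and Nek2, which splits centrosomes, 3.89 and 4.49. Ccna2, cyclin A2, stood 3.31 and 4.29 higher on that scale. Wee1, the kinase that restrains Cdk1, was higher by less, at 0.90 and 1.61. The 2 genes under the limit were Ensa and Arpp19, small inhibitors of the phosphatase PP2A, at 0.03 and 0.14 and at 0.13 and 0.30.

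The transcription factors of the late cell cycle were less uniform, with 4 of 16 higher and medians of 0.40 and 0.62. Foxm1, the forkhead factor of mitotic genes, stood at 54.8 against 11.2 CPM and at 62.1 against 5.65 CPM. E2f8, Lin54 and Lin9 also passed, at 1.46 and 1.80, 0.79 and 1.52, and 0.65 and 1.07. Mybl2, which encodes B-Myb, was at 0.44 and 1.26 and so past the limit in the KO-labelled library alone.

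In the machinery of anaphase the activator Cdc20 and the enzyme Ube2c were both used in the rule, so their levels describe only the choice of the cells. Ube2c stood at 1106 CPM against 52.8 below the limit and at 1053 against 25.1, and Cdc20 at 628 against 41.3 and at 549.8 against 23.4. Of 19 genes outside the rule 7 were higher, and the medians were 0.24 and 0.45. Pttg1, which encodes securin, the guard of separase, had log2 differences of 2.30 and 3.04, and Espl1, separase, 2.40 and 3.24. Anapc11, the RING subunit of the complex, was at 0.24 and 0.48, under the limit.

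Checkpoint genes were higher in 9 of 13 cases, with medians of 1.28 and 2.03. The kinase scaffold Bub1b stood at 74.3 against 9.46 CPM and at 77.1 against 4.33 CPM. Bub3, its partner, was 1.08 and 1.32 higher on the log2 scale. Of the centromere and kinetochore genes, 29 of 33 were higher, with medians of 1.44 and 2.08. Cenpa, the histone H3 variant that marks centromeres, stood at 674 against 80.3 CPM and at 587 against 36.8 CPM, and Cenpe, a kinetochore motor, at 353 against 30.8 and at 388 against 16.8. All 6 genes of the chromosomal passenger complex and shugoshins were higher, with medians of 2.71 and 3.95, among them Birc5 (survivin, 2.43 and 3.72) and Sgo2a (a guard of centromeric cohesin, 3.62 and 4.49).

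Spindle motors and microtubule factors were higher in 23 of 25 cases, with 0 lower and medians of 3.15 and 4.02. Aspm, which focuses spindle poles, stood at 164 against 9.004 CPM and at 179 against 5.48 CPM. Kif2c, a kinesin that takes microtubules apart, stood at 96.8 against 6.57 and at 90.3 against 3.01. Tpx2, the activator of Aurora A on spindles, had log2 differences of 3.41 and 4.29. Kif2a and Numa1 were under the limit, at 0.33 and 0.27 and at 0.40 and 0.00. In cytokinesis 10 of 12 genes were higher, and Kif23, the central spindle kinesin, stood at 122 against 10.3 CPM and at 167 against 8.78 CPM. Rhoa, the GTPase of the contractile ring that acts in many other processes, was at -0.04 and 0.05.

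Genes of chromosome structure and the nuclear envelope were also higher in part. Of 25 condensin, cohesin and chromosome structure genes, 17 were higher, with medians of 1.23 and 1.65. Top2a, the topoisomerase that untangles sister DNA, stood at 889.5 against 186 CPM and at 1004 against 110 CPM, and Mki67, the proliferation antigen Ki-67, at 486 against 60.7 and at 447 against 25.6. The cohesin loader Nipbl did not differ by more than 0.04 on the log2 scale. Of 12 nuclear envelope genes 7 were higher, led by Lmnb1, a lamin, at 1.91 and 2.25. Of 12 tubulin and stathmin genes 7 were higher. Tubb4b, a beta-tubulin, stood at 758 against 147 CPM and at 644 against 110 CPM, whereas Tuba1a, an alpha-tubulin, differed by 0.08 and -0.24. Tubulin genes are near copies of each other, so reads can be split among them.

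**Figure D2:**
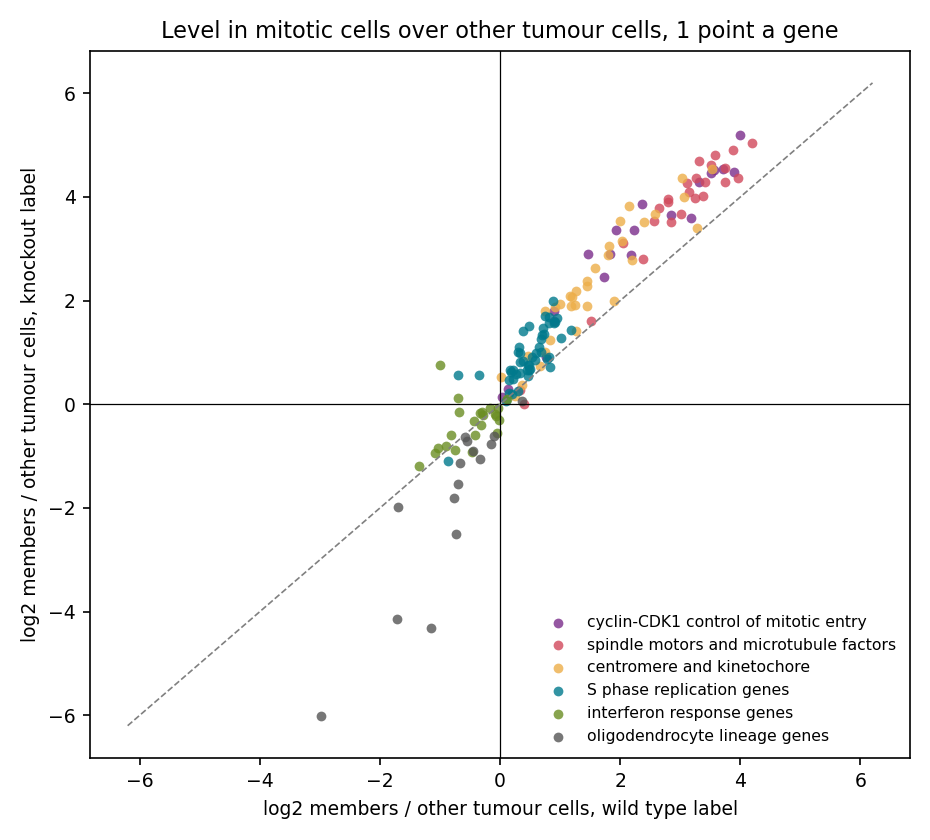
Each point is a gene of one list, at its log2 ratio of mitotic cells over other tumour cells in the WT-labelled library (horizontal) and the KO-labelled library (vertical), with the dashed line marking equal values. Spindle and mitotic entry genes lie at the upper right, S phase genes nearer 0, and interferon and oligodendrocyte genes mostly below 0; genes of the rule are left out.

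The 20 genes named by the largest of their smaller differences, all outside the rule, were Gas2l3, Aspm, Plk1, Nek2, Kif2c, Pimreg, Prr11, Kifc1, Kif20a, Aurka, Sgo2a, Kif23, Depdc1a, Ccnf, Troap, Cenpe, Cdc25c, Hmmr, Tpx2 and Dlgap5. Gas2l3, a protein that links actin and microtubules at the midbody, stood at 221 against 11.8 CPM and at 195 against 6.59 CPM, with log2 differences of 4.22 (4.001 to 4.45) and 4.88 (4.64 to 5.13). It was counted in 98.1% and 93.7% of mitotic cells and in 20.4% and 11.8% of the other tumour cells. In dividing immune cells, by the same limit, it stood at 55.0 against 19.2 CPM and at 59.2 against 11.3 CPM, for log2 differences of 1.51 (1.19 to 1.83) and 2.40 (2.13 to 2.65). The intervals of tumour and immune cells, which cover counting error only, do not overlap in either library. The named genes were picked by their differences in tumour cells, which can favour smaller ones in immune cells, so this tests nothing. Ccnf, cyclin F, was the other named gene with both immune values below both tumour values, at 2.84 and 3.52 against 3.56 and 4.51. Plk1 had immune differences of 4.65 and 5.04, and Tpx2 of 3.38 and 4.17. Hmmr, the hyaluronan-mediated motility receptor that also binds spindles, had larger differences in immune cells, at 4.70 and 4.98 against 3.51 and 4.62 in tumour cells. Of all 12849 genes measured in immune cells, 8.51% were 1.5-fold higher in dividing cells of both libraries and 13.5% lower. Of the entry regulators 17 of 20 passed that limit there, and of spindle genes 24 of 25.

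**Figure D3:**
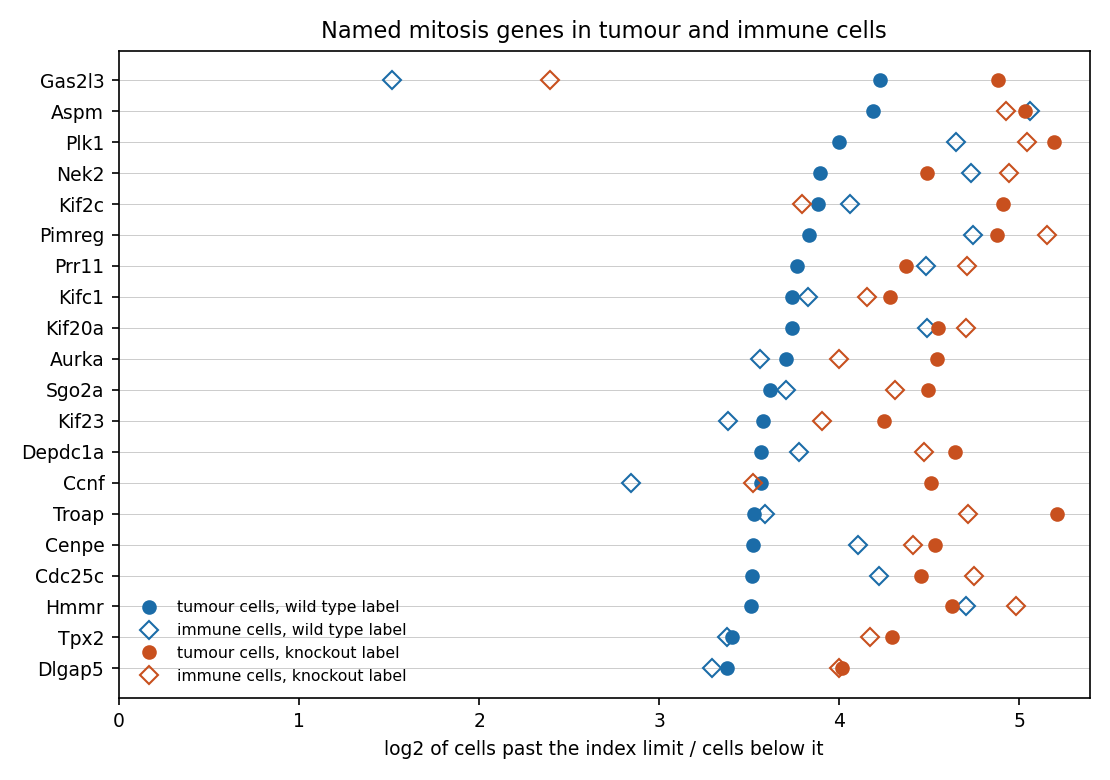
Log2 ratio of cells past the index limit over cells below it for the 20 named genes, in tumour cells (filled) and immune cells (open) of the WT-labelled (blue) and KO-labelled (red-brown) library. In Gas2l3 and Ccnf both immune values lie below both tumour values, at 1.51 and 2.40 against 4.22 and 4.88 for Gas2l3 and at 2.84 and 3.52 against 3.56 and 4.51 for Ccnf.

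S phase genes were only partly shared with mitosis. Of 48 replication genes, 19 were higher in mitotic cells and 1 lower, with medians of 0.47 and 0.86. Gmnn, geminin, which blocks a second round of licensing and persists to mitosis, stood 1.18 and 1.44 higher. Pcna, the sliding clamp of replication, was at 0.15 and 0.46, and Ung, a uracil glycosylase of the G1/S boundary, at -0.86 and -1.09. Over the range of the index the summed level of the 48 genes was 919 CPM at an index of 0, 2065 above 0 to 2, and 4313 and 4261 at 2 to 4 and 4 to 8. It was then 3722 at 8 to 16, 3142 at 16 to 32 and 2737 at 32 and more. The 128 other genes of mitosis stood at 2830 CPM at an index of 0, 9240 at 4 to 8 and 21409 at 32 and more, higher at each step. Both libraries had this order within mitotic cells, from 3916 to 2940.5 CPM for replication genes in the WT-labelled library and from 3536 to 2420.5 in the KO-labelled library.

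Single genes are given at 3 steps of the index, the first below the limit and the others within the mitotic cells. Ccne2, cyclin E2 of the G1/S boundary, stood at 25.6 CPM at an index of 2 to 4, 13.5 at 8 to 16 and 3.21 at 32 and more. Pcna stood at 201, 144 and 80.3 CPM at these steps, and Slbp, the histone mRNA binding protein, at 165, 163 and 92.0. Cenpa went the other way, at 170, 439 and 986 CPM, and Tubb4b at 167, 397 and 1149. Arl6ip1, an endoplasmic reticulum membrane protein, stood at 165, 354 and 1568 CPM. Ccnd1, cyclin D1 of growth-factor signalling, was at 727, 716 and 847 CPM with no such order. The median cell had 37640, 39573 and 42555 UMIs at these steps. Across the cells Spearman's rho of the replication sum with the index was -0.24 and -0.23 (161 and 127 cells, values per cell sharing its total), and that of Plk1 0.62 and 0.68.

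**Figure D4:**
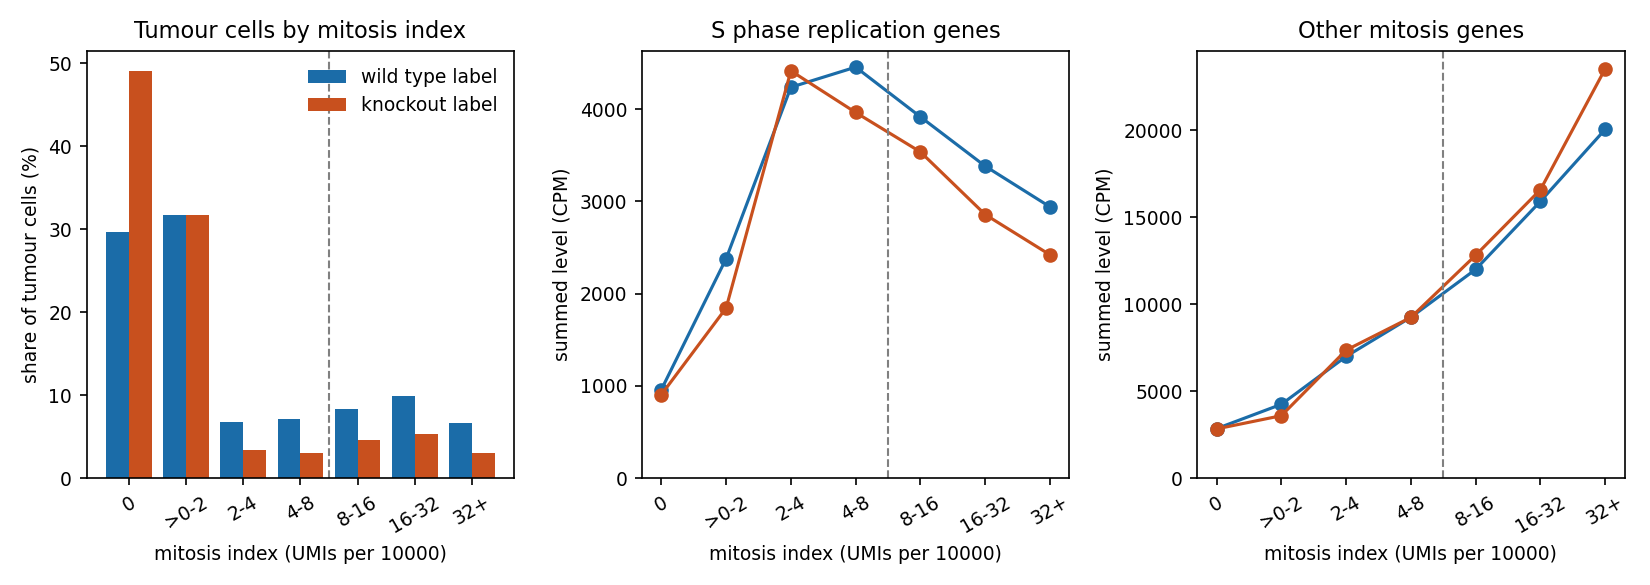
Tumour cells in bins of the mitosis index for the WT-labelled library (blue) and the KO-labelled library (red-brown): share of tumour cells (%, left), and summed CPM of 48 replication genes (middle) and of 128 other mitosis genes (right). The dashed line is the limit of 8. Replication genes peak below it, at 4456 CPM in the bin 4 to 8 in the WT-labelled library and 4415 in the bin 2 to 4 in the KO-labelled library, while other mitosis genes are higher in each next bin.

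Of 23 regulators of G1, 5 were higher in mitotic cells. The 2 that were lower are no larger a share than the 9.88% of all genes. Cdkn3, a phosphatase that acts on cyclin-dependent kinases, was 2.97 and 3.88 higher, and the inhibitors Cdkn2c and Cdkn2d were 2.29 and 2.75 and 1.71 and 2.23 higher. Cdk6 stood at 9.25 against 30.7 CPM and at 23.7 against 63.4 CPM. Cdkn2a, the Ink4a/Arf tumour suppressor locus, was at 346 against 355 CPM and at 431 against 452 CPM, much alike in both classes. Histone genes were higher in 15 of 20 cases, H2afx, the variant phosphorylated at DNA breaks, at 306 against 58.0 CPM and at 390 against 42.0 CPM. The 3' kit primes on poly(A) tails, which most replication-dependent histone transcripts lack, so histone levels cover only the transcripts captured.

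Glial lineage genes were lower in part in mitotic cells. The oligodendrocyte list had 8 of 15 genes lower and 0 higher, with medians of -0.66 and -1.14, and of 14 astrocyte genes 7 were lower and 0 higher. Mbp, a myelin protein, stood at 35.4 against 114 CPM and at 19.8 against 78.2 CPM. A UMI of it was counted in 44.1% against 42.3% of cells and in 54.3% against 49.4%, so no fewer in the mitotic class, and its highest cell below the limit held 48.3 and 71.0 UMIs per 10000. Its level stayed under 20% of that in another gated cell type in both libraries. Bcas1, a gene of early myelinating cells, stood at 579 against 942 and at 266 against 767. Apoe, the lipid carrier made by astrocytes and macrophages, stood at 30.9 against 72.8 CPM and at 47.3 against 122 CPM. It too was counted in more of the mitotic cells, 64.0% against 55.6% and 78.7% against 66.9%, with medians of 0.247 against 0.231 and 0.342 against 0.379 UMIs per 10000. Of its UMIs below the limit 1 cell held 20.3% in the WT-labelled library, at 252 UMIs per 10000, and it too was under 20% of its level in another cell type. Markers of mature oligodendrocytes moved with them, as the sum of 6 markers was 84.9 against 143 CPM and 26.5 against 94.7 CPM; 4 of the 6 are also in the oligodendrocyte list. Without the cells with at least 20 UMIs of these markers, a choice made after seeing the data, 1 of 14 oligodendrocyte genes was lower, Mbp, and 1 higher, Cldn11, with medians of -0.36 and -0.54. The astrocyte list still had 7 of 14 lower. The sum of the mature markers, which chose the cells left out, was then 63.0 against 82.8 CPM and 26.5 against 31.0 CPM. Of 23 interferon response genes 6 were lower and 0 higher, among them Iigp1, an interferon-induced GTPase, at 261 against 665 CPM and at 788 against 1793 CPM.

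The 12 lowest named genes were Mgp, Ptgds, Fam214a, Mbp, Dusp1, Btg2, Fbxo32, Mxd4, Sat1, Apoe, Lbh and Anxa5. Btg2, an antiproliferative p53 target, stood at 23.3 against 67.4 CPM and at 31.1 against 79.1 CPM. Mxd4, a repressor that competes with Myc for its partner Max, stood at 39.2 against 92.7 and at 31.9 against 93.4. Fbxo32, a ubiquitin ligase subunit of muscle atrophy, had log2 differences of -1.85 and -1.30, and Sat1, the polyamine acetyltransferase, -1.48 and -1.24. Mgp, a matrix protein of vessels and mural cells, had log2 differences of -2.50 and -5.15, and of 1.10 and 0.56 once the cells with T and NK, macrophage, dendritic and B, or endothelial markers, or with little Sox2 and Hmga2, were left out. Without the cells with oligodendrocyte markers, Ptgds, a prostaglandin synthase, went from -3.27 and -2.40 to -2.27 and -0.79, and Mbp from -1.69 and -1.98 to -0.93 and -1.29.

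Between the libraries, the mitosis lists of the mitotic cells had medians near 0. The same index limit chose the members of both libraries, and genes such as Plk1 (rho 0.62 and 0.68) and Cenpa (0.61 and 0.66) follow that index. Likeness in these lists thus partly describes the choice and tests nothing. Of 9720 genes with at least 100 UMIs in mitotic cells, 233 (2.4%) were 2-fold higher and 182 (1.87%) 2-fold lower in the KO-labelled library. In cells thinned to 5000 UMIs, where fewer genes reach 100 UMIs, these were 61 and 36. At 1.5-fold 7.64% were higher and 6.18% lower. Of the 20 entry regulators 0 passed 1.5-fold in either direction, with a median log2 ratio of the KO-labelled to the WT-labelled library of 0.12. Likewise 0 of 25 spindle genes (median 0.14), 0 of 13 checkpoint genes (0.09) and 0 of 12 cytokinesis genes (0.22) passed, while of 33 centromere genes Cenpw was higher (0.69) and Cenps lower (-0.60). Cdk1 stood at 432 and 499 CPM, Tpx2 at 327 and 319, and Cenpe at 353 and 388. Replication genes had a median of -0.17 with 3 of 48 lower, among them Ung and Cdt1.

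In tumour cells below the limit the same lists were lower in the KO-labelled library. There 9.93% of 12285 genes were 1.5-fold higher and 8.15% lower. Entry regulators were lower in 14 of 20 cases with a median of -0.76, spindle genes in 17 of 24 (-0.79), centromere genes in 18 of 33 (-0.78) and replication genes in 28 of 48 (-0.64), with 0 higher in each. Cdk1 stood at 91.9 and 48.4 CPM there and Birc5 at 87.1 and 32.6. More of these cells had an index of 0 in the KO-labelled library, as given above, and its part in these values was not tested.

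**Figure D5:**
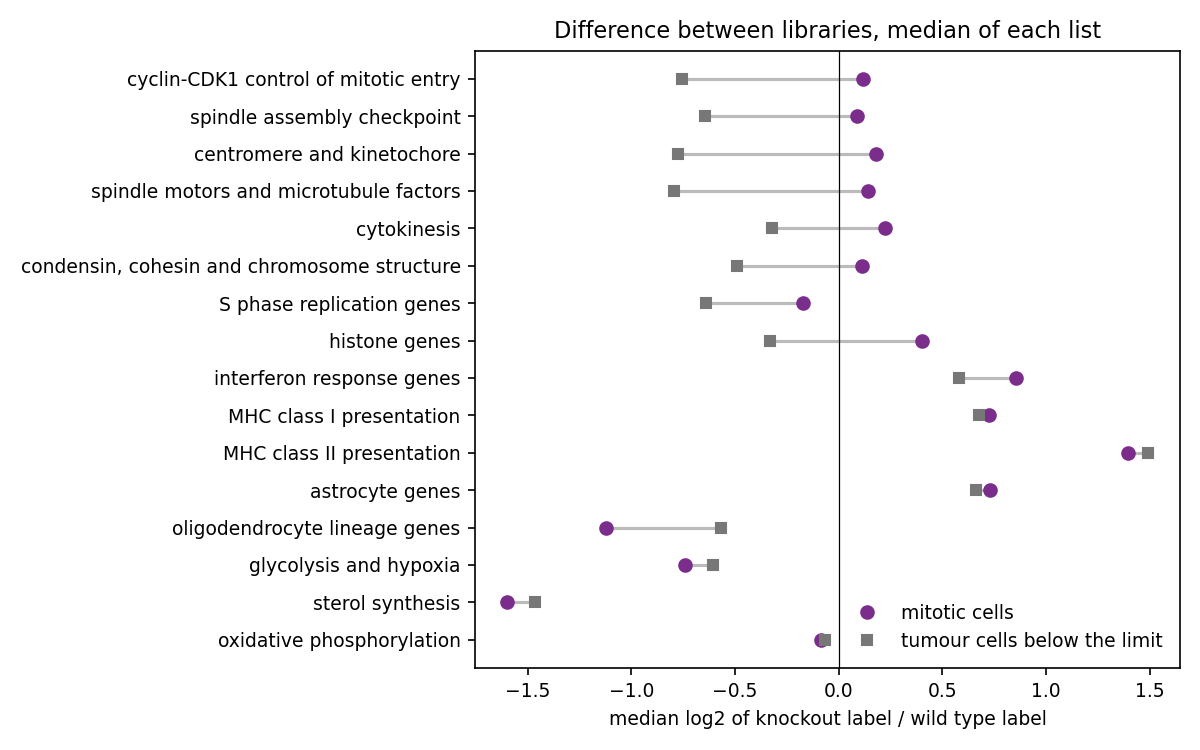
Median log2 ratio of the KO-labelled to the WT-labelled library for each gene list, in mitotic cells (circles) and in tumour cells below the limit (squares). The 6 mitosis lists shown lie between 0.09 and 0.22 in mitotic cells and between -0.32 and -0.79 below the limit, while interferon, MHC, sterol and glycolysis lists lie on the same side of 0 in both.

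Histone genes differed in part between the mitotic cells of the libraries. Of 20 histone genes 9 were higher in the KO-labelled library and 0 lower, with a median of 0.40, which is under 1.5-fold. In tumour cells below the limit 2 of 20 were higher and 8 lower, with a median of -0.33. Hist1h2ap, an H2A gene, stood at 118 and 497 CPM, with a UMI in 60.2% and 86.6% of mitotic cells and a log2 ratio of 2.07 (1.964 to 2.18). Hist1h2ae stood at 140 and 411 CPM (1.56, 1.45 to 1.66), and Hist1h2bc at 30.6 and 81.9 (1.42, 1.19 to 1.65). Hist1h1b, a linker histone, was at 206 and 215 CPM. Without the cell with most UMIs of it, Hist1h2ap remained at 2.03. In cells thinned to 5000 UMIs the median of the list was 0.14. Clustered histone genes are near copies of each other, so these levels are uncertain gene by gene.

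The interferon response and antigen presentation lists were higher in the KO-labelled library in mitotic cells, as in the tumour cells below the limit. This did not hold for each gene. Of 23 interferon genes 14 were higher and 1, Ifi27, lower, with a median of 0.85 against 0.58 below the limit. Iigp1 stood at 261 and 788 CPM (log2 ratio 1.60, 1.52 to 1.67), with a UMI in 78.3% and 94.5% of mitotic cells. Cxcl10, the chemokine that draws T cells, stood at 307 and 1162 CPM (1.92, 1.85 to 1.99), where 1 cell held 26.2% of its UMIs in the WT-labelled library. Rsad2, the antiviral viperin, had a ratio of 1.79, and of 1.24 without the cell that held 32.3% of its UMIs in the KO-labelled library. In tumour cells below the limit the log2 ratio was 1.43 for Iigp1, 0.68 for Cxcl10 and 0.04 for Rsad2. Of 14 MHC class I genes 11 were higher, with a median of 0.72, and B2m, the light chain of class I, stood at 1054 and 1734 CPM. All 7 class II genes were higher, with a median of 1.39. Ciita, their transactivator, stood at 19.9 and 45.9 CPM. Cd74, the invariant chain, stood at 616 and 1623 CPM. In the KO-labelled library 3 of the 7, Ciita, H2-DMa and H2-DMb1, reached 20% of the highest level in any other cell type gated by markers, and Cd74 did not. A single Ptprc UMI was found in 9.32% and 21.3% of mitotic cells, and the part of immune RNA in the class II values was not tested.

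Sterol and glycolysis genes were lower in the KO-labelled library. Of 20 sterol genes 19 were lower, with a median of -1.60, against -1.47 below the limit. Idi1, an isomerase of the mevalonate pathway, stood at 66.5 and 5.15 CPM, with a UMI in 58.4% and 15.7% of mitotic cells. Hmgcs1, the synthase at the head of the pathway, stood at 84.0 and 12.1 CPM (-2.80, -3.17 to -2.45), and Fdps at 151 and 36.4. Ebp, a sterol isomerase, was the exception, at 94.5 and 91.1 CPM. Of 16 glycolysis and hypoxia genes 10 were lower and 0 higher, with a median of -0.74. Ldha, lactate dehydrogenase, stood at 424 and 192 CPM, and Slc16a3, the lactate exporter MCT4, at 74.7 and 6.27. Of 20 genes of oxidative phosphorylation 1, Ndufa1, was higher and 0 lower.

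Lineage and state genes differed as well. Oligodendrocyte lineage genes were lower in 11 of 12 cases in the KO-labelled library, with a median of -1.12, of which 2, Bcas1 and Gpr17, reached 20% of the level in the other gated cell types. The mature oligodendrocyte markers moved with them, at 84.9 and 26.5 CPM in sum, with both measured members lower and a median of -1.82. Without the cells with at least 20 UMIs of those markers 9 of 12 lineage genes were lower, with a median of -1.01. The median of the mature markers was then -1.23. Gpr17, a receptor of oligodendrocyte precursors, stood at 31.4 and 4.51 CPM. Of 12 astrocyte genes 7 were higher and 2 lower, and S100b, a calcium-binding protein of glia, stood at 72.5 and 156 CPM. Hmga2 stood at 227 and 442 CPM (0.96) and Olig2, a factor of glial precursors, at 262 and 143 (-0.87). Hmga2 took part in the choice of the tumour cells, and its ratio was 0.78 without the cell with most UMIs of it. Cntn1, Nts and Sncaip, the genes of 1 tumour state, had log2 ratios of -1.99, -2.22 and -1.27, and of -2.17, -2.40 and -1.31 below the limit. With each mitotic cell given to the state with the largest sum of its 3 genes, which put 26, 72 and 63 cells of the WT-labelled library and 40, 25 and 62 of the KO-labelled library in the Col2a1, Sncaip and Tcim states, and with these weighted alike in both libraries, the median was -1.53 for sterol genes, 0.97 for interferon genes and 0.30 for histone genes.

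Further named genes higher in the KO-labelled library were Col4a5, D5Ertd615e, Trim30d, Cst6, Ifi203, Polr2l, Csta2 and Ifit3. Col4a5, a basement membrane collagen, stood at 14.4 and 62.1 CPM (2.11, 1.79 to 2.43) with a UMI in 31.1% and 62.2% of cells. Polr2l, a small subunit of RNA polymerases, stood at 132 and 415 CPM. Named genes lower there included Tmem119, Krt8, Opcml, Vgf, Lims2 and Slc47a1. Opcml, a cell adhesion protein, stood at 301 and 23.2 CPM, with a UMI in 56.5% and 14.2% of cells and a ratio of -3.70 (-3.95 to -3.46). Tmem119, used here as a microglia marker, stood at 69.5 and 1.93 CPM, where its highest level in gated cell types of the WT-labelled library was 56.2 CPM. Its ratio went from -5.17 to -2.29 without the cells with markers of other types, which its own UMIs helped to choose. For Krt8, a keratin, 1 cell held 45.3% of the UMIs in the WT-labelled library, and the ratio was -3.78 with it and -2.92 without it. Vgf, a neuropeptide precursor, had 85.9% of its UMIs in 1 cell, without which the ratio was -0.29 in place of -3.08.

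The T-type channel genes were hardly counted in mitotic cells. Cacna1h had 0 UMIs in 161 cells in the WT-labelled library, where 3 counts would be 0.408 CPM, and 1 UMI in 127 cells (0.161 CPM, 0.00407 to 0.896) in the KO-labelled library. Cacna1g had 0 and 1 UMIs and Cacna1i 0 and 2. Tumour cells below the limit held 4 and 6 Cacna1h UMIs. Of 18 voltage-gated calcium channel genes 7 reached 100 UMIs in tumour cells, of which 4 were lower in mitotic cells in both libraries and 0 higher. Of all genes 9.88% were lower and 4.61% higher by that limit. The channel values were not recomputed without the cells with markers of other types. Cacna1c, the L-type channel Cav1.2, stood at 1.496 against 12.6 CPM in the WT-labelled library and at 0.322 against 6.22 CPM in the KO-labelled library. The value of 0.322 CPM is under the 0.483 CPM that 3 counts would be there. Cacna1b, the N-type channel, stood at 5.44 against 14.5 CPM and at 2.90 against 7.13 CPM. Cacna1a, the P/Q-type channel, stood at 9.38 and 12.9 CPM in the mitotic cells of the libraries, a log2 ratio of 0.46 whose interval was -0.03 to 0.94. In the KO-labelled library it was under 20% of its level in another gated cell type.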

How the data were processed

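Single-cell RNA sequencing was analysed from 1 library of C57BlL6 WT hosts and 1 library of Cacna1H-/- hosts. The deposited matrices hold raw UMI counts for each gene in each barcode, whole numbers with no normalization; the authors used Cell Ranger 7.1.0 and Seurat 5.0.2 with mm10, per the submitters' processing notes, which do not name the step each tool served. The matrices also hold human genes, and only the 32285 mouse genes were used for the rule and the levels.

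Cells were selected by the rule given in the report. UMIs were summed per library and class of cells and scaled to CPM, and log2 ratios have exact conditional 95% intervals, which cover counting error only; summed counts limit precision to genes with at least 100 UMIs. With 1 library per group there is no test. The matrices held 7382 and 8369 barcodes. Doublets were called with Scrublet in scanpy 1.11.5 and left in: 77 and 164 of 3110 and 6575 kept cells were called, 2.48% and 2.49%, where in the WT-labelled library the automatic threshold marked 0.289% and the expected number with the highest scores was taken instead. Named genes were those outside the rule with at least 50 CPM in the class where they are higher: the 20 highest and 12 lowest by the smaller difference of the 2 libraries, and between libraries the 12 highest and 12 lowest, after leaving out genes under 20% of their level in another marker-gated cell type. Beyond these, genes are named as examples of lists, and the results of a few genes are not reported here. Aldoa, a symbol held by 2 rows, was left out of the glycolysis list. The members and lists were chosen with earlier results of these data known. Alternatives were index limits of 4 and 16, an index of 8 other genes, thinning to 5000 UMIs, the mean of per-cell CPM, median-of-ratios scaling, other gene and cell filters, doublets removed and states weighted alike; leaving out cells with markers of other types, of oligodendrocytes or with sex-linked UMIs was added after seeing the data. Promoters come from RefSeq on GRCm38.p6. Computation used scipy 1.17.1, pandas 2.3.3 and numpy 2.4.6 under Python 3.11.15, and figures matplotlib 3.10.9. On simulated data 95.3% of the intervals held the simulated ratio over 10940 genes (mitotic over other tumour cells, WT-labelled library) and 95.9% over 9720 genes (between libraries). The simulated counts were Poisson draws with no spread between cells, which is the error that the intervals assume. The simulation thus checks the computation only, and cannot show how the intervals hold for the real cells.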

Additional observations from a re-analysis of the deposited data

Results flagged for a closer look

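For 9 genes of the lists and named genes reported here the difference between mitotic and other tumour cells pointed in opposite directions in the libraries, past 1.5-fold in each. The difference between the libraries was not tested for any of them, and for most of them a large share of the UMIs lay in 1 cell.

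Cldn5, a tight junction protein, stood at -8.10 and 2.08, with all 253 UMIs of mitotic cells in the KO-labelled library in 1 cell. In the WT-labelled library mitotic cells held 1 Cldn5 UMI against 566 below the limit, of which 1 cell held 62.4%. Cdh5, VE-cadherin, stood at -3.65 and 2.22, with 96.8% of 31 UMIs in 1 cell in the KO-labelled library. In the WT-labelled library it had 0 UMIs in mitotic cells against 78 below the limit, and 3 counts stood in for the 0. Pecam1, the endothelial adhesion molecule CD31, stood at -2.65 and 0.83, with 81.1% of 53 UMIs in 1 cell. C1qc, a complement gene of macrophages, stood at -0.83 and 1.32, with 66.7% of its 120 UMIs in 1 cell. Hspa1a, a heat shock protein, stood at -2.73 and 1.04, with 61.3% of 31 UMIs in 1 cell.

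Rsad2 stood at -0.995 and 0.76, and 32.3% of its 1218 UMIs in mitotic cells of the KO-labelled library lay in 1 cell. Krt8, a keratin, stood at -1.08 and 0.96, where 1 cell held 45.3% of its 472 UMIs in mitotic cells of the WT-labelled library and the KO-labelled library had 29 and 58 UMIs in the classes. Cst6, a cystatin that inhibits cysteine proteases, stood at -1.09 and 0.88, with 357 UMIs in 75 mitotic cells and 991 UMIs in 73. The cell with most Cst6 UMIs held 12.9% and 16.8% of them. Ccne1, cyclin E1, which drives entry into S phase, had UMIs in fewer mitotic cells than Cst6. It stood at -0.68 in the WT-labelled library, with 68 UMIs in 36 mitotic cells, and at 0.79 in the KO-labelled library, with 81 UMIs in 29. The cell with most UMIs held 20.6% and 23.5% of them.

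The matrices also count human genes, which the comparisons did not use. They took 0.0168% of the UMIs of mitotic cells in the WT-labelled library (1233 UMIs) and 0.0232% in the KO-labelled library (1440 UMIs), against 0.0166% and 0.0252% in tumour cells below the limit.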

How the results depend on the processing

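No paired analysis was possible because each group has 1 library and no replicate numbers, and for the same reason no library could be left out. Of 205 values of the main comparisons recomputed under other settings, 175 stayed within the limits of the main value and 30 moved. Of 623 further values 557 stayed and 66 moved. These limits were the main interval, or 1.5-fold for counts of genes. For list medians that interval is not printed here. Some of the values that stayed could not have moved. With at least 20 or at least 1 UMI the entry regulator medians were again 2.20 and 3.37, as all genes of that list were already measured. Those of mitotic transcription factors were likewise again 0.40 and 0.62. The counts of values that stayed thus overstate how far the results were tested. A reversal, of which there were 0, could be called only for log2 values past 1.5-fold whose interval left out 0. Smaller medians could change sign uncalled, as that of mitotic transcription factors between libraries ranged from -0.02 to 0.42. The mitotic share was 31.8% and 15.9% with an index limit of 4 and 16.5% and 8.29% with a limit of 16. The median log2 difference of entry regulators between mitotic and other tumour cells was 2.61 (limit 4), 2.72 (thinned) and 2.54 (mean of per-cell CPM) in the WT-labelled library and 2.99 (limit 16), 3.66 (thinned) and 3.86 (mean of per-cell CPM) in the KO-labelled library. For replication genes it was 0.73 (limit 4), 0.25 (limit 16), 0.88 (thinned) and 0.70 (mean of per-cell CPM), and 1.07 (limit 4), 0.54 (limit 16) and 1.16 (mean of per-cell CPM). Between libraries the histone median was 0.14 thinned, and the interferon median 0.62 thinned and 0.67 by the mean of per-cell CPM. Genes 2-fold lower in mitotic cells in both libraries numbered 175 thinned, 260 without cells with sex-linked UMIs (chosen after seeing the data), 852 with at least 20 UMIs and 869 with at least 1 UMI, and those 2-fold higher ranged from 256 to 400. Between libraries 61, 735 and 1630 genes were higher in the KO-labelled library when thinned, with at least 20 and with at least 1 UMI, and 36, 427 and 867 lower. The cause of these shifts was not tested, except that a lower minimum of UMIs tests more genes and thinning fewer.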

Other observations

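Genes of immediate early response and heat shock were lower in mitotic tumour cells in 8 of 18 cases and higher in 0, with median log2 differences of -0.71 and -0.58. By the same limit of 1.5-fold in both libraries, 9.88% of all genes were lower and 4.61% higher. Fos, a subunit of the AP-1 factor, stood at 679 against 1077 CPM in the WT-labelled library and at 519.7 against 977 CPM in the KO-labelled library. Jun, its partner, stood at 527 against 939 and at 608 against 1252. Hsp90ab1, an abundant chaperone, was at 0.14 and 0.17 on the log2 scale, under the 1.5-fold limit.

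Of 25 genes of neural stem and glial progenitor cells 2 were higher and 4 lower. Of all genes 4.61% were higher and 9.88% lower by that limit, so these small counts are not read as a result about the list. Pdgfra, the receptor of oligodendrocyte precursors for platelet-derived growth factor, stood at 60.2 against 18.3 CPM and at 42.5 against 16.3 CPM. Fabp7, a fatty acid binding protein of radial glia, stood at 148 against 91.5 and at 155 against 93.3. Id3 and Hes1, repressors of differentiation, were lower, at -1.11 and -0.90 and at -1.06 and -0.75 on the log2 scale. Of 14 p53 targets 2, Btg2 and Fas, were lower, likewise a small count beside the 9.88% of all genes. Cdkn1a, which encodes the inhibitor p21, was at -0.69 and -0.46, past the limit in the WT-labelled library only, and Mdm2 at -0.17 and 0.02. None of 20 genes of oxidative phosphorylation passed the limit in both libraries.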
